A study of Mus musculus with 24 samples.

Results

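Open chromatin next to the ends of the mouse autosomes was examined by ATAC-seq, which inserts sequencing adapters with Tn5 transposase wherever DNA is accessible, in haematopoietic stem and progenitor cells with and without Daxx. A peak or a listed site belonged to the ends when its midpoint lay between 3.0 and 8.0 Mb of chromosomes 1 to 19, the side next to the centromere, or within the last 2 Mb, the side next to the telomere (mm10). The 11 peak lists together held 28916 such peaks of 549003, and the 3 tables of sites compared between genotypes held 4543 such sites of 80166. The same place counts once in every list that holds it. The ends made up 3.93% (centromere side) and 1.49% (telomere side) of the sequenced autosomes and were gene rich, with 9.59 and 13.8 protein-coding genes per Mb against 8.57 in the rest of the same chromosomes.

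All cells were sorted from the bone marrow of C57BL/6 mice, and every animal, control or mutant, carried a Cre transgene (Cre +/-). Daxx-WT animals were Daxx +/+ Cre +/-, Daxx-KO animals Daxx F/F Cre +/-, with exons of Daxx flanked by loxP sites, and the double knockouts (DKO) were homozygous for floxed alleles of both genes, Daxx F/F and Pu.1 F/F, with the same Cre +/-. Long-term haematopoietic stem cells (LT-HSC), common myeloid progenitors (CMP) and granulocyte-macrophage progenitors (GMP) had no time in their labels. Per the study's methods they came from Rosa26CreERT2 animals 3 weeks after tamoxifen by gavage. This Cre is driven by a promoter active in nearly all cells. A further LT-HSC set was taken 3 days post induction (3 d.p.i.) with tamoxifen, by injection and at another dose. The KLS cells (c-Kit+ Lin- Sca-1+), a mixture of stem and multipotent progenitor cells, were taken 3 weeks post induction (3 w.p.i.) with pI:pC. They came from Mx1Cre animals, with a Cre driven by an interferon-responsive promoter. The labels give all controls as Daxx +/+, while a legend of the study names a Daxx +/F animal beside a Daxx +/+ one for LT-HSC 3 d.p.i., so a control there may be heterozygous. Age and sex are not in the labels. Groups had 2 libraries each, except 3 for Daxx-KO LT-HSC 3 d.p.i. and 3 for Daxx-KO KLS, which makes 24 libraries in 11 groups. Each group has 1 peak list, so peaks have no replicates. The study's methods call the samples of its genomic assays biological replicates. Nothing in the labels says which animal a library came from, and p-values measure only the spread between these libraries.

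Daxx is a histone chaperone which, together with the chromatin remodeller Atrx, places the histone variant H3.3 at telomeres and in the heterochromatin next to centromeres. Mouse telomeres are arrays of the hexamer TTAGGG, and mouse chromosomes, with their centromere at one end, carry major satellite repeats beside it. PU.1, the transcription factor encoded by Pu.1 (Spi1), opens enhancers of myeloid and lymphoid genes and binds a purine-rich GAGGAA core. Daxx itself, on chromosome 17, lies in neither window. Most listed sites over it were lower in the knockouts. At chr17:33909601-33912700 Daxx-KO KLS held 54.6, 90.1 and 61.2 scaled reads (defined below) against 255 and 295 in Daxx-WT, with like values in the other 2 tables, while 1 of 3 Daxx sites in DKO was higher. Of 5 sites over Spi1 in DKO, chr2:91114801-91115800 held 2.12 and 4.68 against 31.1 and 58.1, and the other 4 were higher. Which of these sites lie in the deleted parts was not checked.

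The sequences of 3 places that the results turn on are shown first, because they are repeats of different kinds. They were read from the mm10 reference, + strand, 5′ to 3′, with TGCTGC in capitals in the second and no capitals in the first and the last.
chr4 end, chr4:156356851-156357150: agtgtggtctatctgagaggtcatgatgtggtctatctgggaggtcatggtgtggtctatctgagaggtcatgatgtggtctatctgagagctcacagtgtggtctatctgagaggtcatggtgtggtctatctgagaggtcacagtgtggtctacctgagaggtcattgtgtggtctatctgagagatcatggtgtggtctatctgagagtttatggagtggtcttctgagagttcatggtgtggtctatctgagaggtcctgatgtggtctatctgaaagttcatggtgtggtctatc
chr11 near the centromere, chr11:3602420-3602719: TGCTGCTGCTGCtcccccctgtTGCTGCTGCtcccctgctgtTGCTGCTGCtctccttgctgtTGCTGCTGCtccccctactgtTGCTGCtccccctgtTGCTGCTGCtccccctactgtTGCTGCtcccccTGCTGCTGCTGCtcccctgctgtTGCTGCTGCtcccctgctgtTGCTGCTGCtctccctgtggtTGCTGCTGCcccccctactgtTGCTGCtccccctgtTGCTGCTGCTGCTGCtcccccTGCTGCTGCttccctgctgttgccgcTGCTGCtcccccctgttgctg
chr9 start, chr9:3001953-3002186: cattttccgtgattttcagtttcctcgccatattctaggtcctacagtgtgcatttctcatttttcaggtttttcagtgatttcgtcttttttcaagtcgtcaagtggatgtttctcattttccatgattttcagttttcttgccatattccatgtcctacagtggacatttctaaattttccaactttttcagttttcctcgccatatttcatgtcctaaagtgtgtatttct

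Not every assembled end is telomeric repeat. The chromosome 4 stretch held 0 copies of TTAGGG and was instead a tandem repeat with a period of 24 bp, at which 82.3% of bases matched against a median of 24.9% over other spacings. The chromosome 9 stretch is 1 unit of a repeat with a period of 234 bp, the length of the mouse major satellite, at which 74.3% of bases matched against a median of 31.2%. Such repeats are nearly identical on several chromosomes, and how reads that map to several places were handled is not given in the sources used here, so a terminal value may include reads from other ends.

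Peaks on the last 2 kb of sequence were more widespread and wider in Daxx-KO than in Daxx-WT LT-HSC 3 d.p.i. Of 19 chromosomes, 9 carried such a terminal peak in Daxx-WT and 16 in Daxx-KO. The 9 of Daxx-WT, on chromosomes 2, 3, 6, 8, 10, 12, 13, 16 and 17, were all present in Daxx-KO, and chromosomes 1, 7, 9, 11, 14, 18 and 19 were added. All terminal peaks of all lists, and 0.0291 to 0.125% of peaks in the rest of the chromosomes, held at least 5 TTAGGG on 1 strand. No replicate check is possible, since each genotype has 1 list. The Daxx-KO list was also longer, at 43466 autosomal peaks against 36287, and came from 3 libraries against 2. Terminal peaks were not counted in lists of equal length.

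The 9 shared terminal peaks were all wider in Daxx-KO, by a median of 423 bp, where shared peaks of all autosomes were wider in 66.8% of cases and by a median of 36 bp. The chromosome 6 peak went from 296 bp in Daxx-WT to 1590 bp in Daxx-KO, and the chromosome 8 peak from 290 to 1752 bp. Those on chromosomes 13, 16 and 17 went from 762, 583 and 446 bp to 1560, 1006 and 906 bp. The gain was on the inner flank, since the outer boundaries hardly differed. Widths barely differed on chromosomes 2, 10 and 12, at 559 and 569, 773 and 791, and 857 and 879 bp. Among the added peaks those of chromosome 14 (2342 bp, fold enrichment 6.33), chromosome 18 (2018 bp, 8.93) and chromosome 1 (1906 bp, 6.56) were the widest.

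Fold enrichment, the authors' ratio of peak signal to local background, was 34.0 in Daxx-WT at the end of chromosome 12, the highest of all peaks in that list, and 29.5 (rank 4) in Daxx-KO. Chromosome 10 had 30.9 (rank 3) and 27.8 (rank 9). Chromosome 8 had 7.26 and 13.9. In all, fold enrichment was higher in Daxx-KO at 6 of the 9 shared ends, with a median log2 ratio of 0.30 against 0.12 over the shared peaks of the rest of the chromosomes. The median over the terminal peaks was 16.5 in Daxx-WT and 10.7 in Daxx-KO, the second including the 7 added weaker peaks, beside list medians of 6.20 and 6.34.

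**Figure D1:**
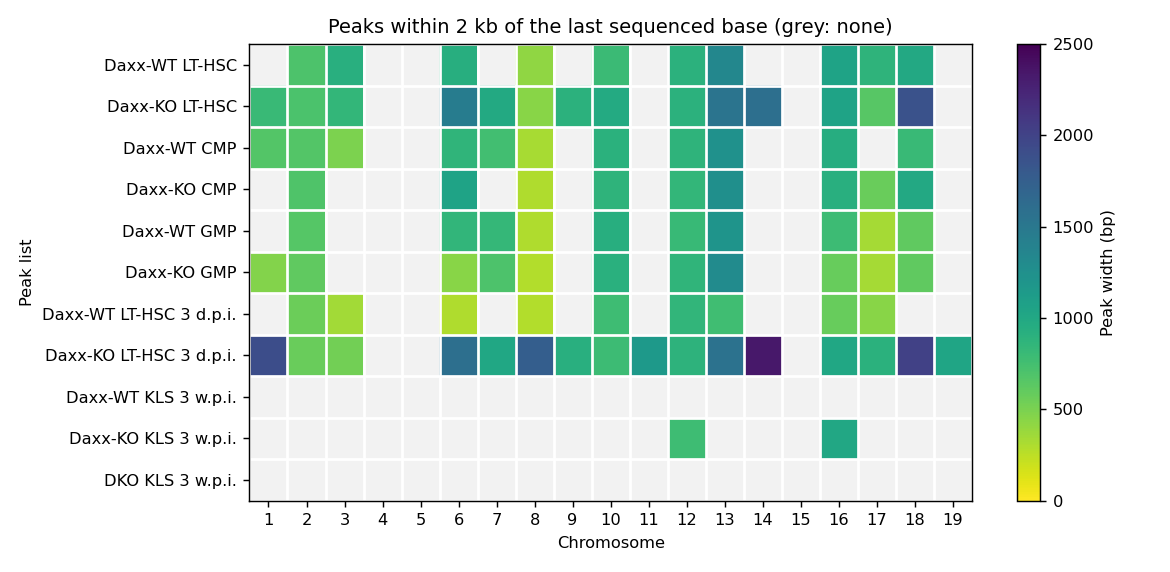
Peaks within 2 kb of the last sequenced base of chromosomes 1 to 19 (columns of the grid) in each of the 11 peak lists, with colour giving the peak width in bp and grey meaning no peak. Daxx-KO LT-HSC 3 d.p.i. fills 16 of 19 chromosomes, Daxx-WT 9, and the KLS lists 0 to 2.

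The LT-HSC without a time label had terminal peaks at 10 ends in Daxx-WT and 14 in Daxx-KO, with chromosomes 1, 7, 9 and 14 added. All 4 are also among the ends added at 3 d.p.i. The 10 shared peaks were wider in Daxx-KO in 7 cases, by a median of 19.5 bp, which is under the 27 bp median of all shared peaks. In the more mature progenitors the counts of both genotypes were closer. CMP had 11 terminal peaks in Daxx-WT and 9 in Daxx-KO, with 4 of 8 shared ones wider in Daxx-KO. There the ends of chromosomes 1, 3 and 7 had a peak in Daxx-WT only and that of chromosome 17 in Daxx-KO only. Those of chromosomes 1 and 7 were among the ends added by Daxx-KO in both LT-HSC sets. GMP had 10 and 11, with 2 of 10 wider and the end of chromosome 1 added. Over all shared peaks 29.4% (CMP) and 29.3% (GMP) were wider in Daxx-KO, with median differences of -30 and -29 bp, against 0.5 and -10 bp at the terminal ones. KLS cells had almost none, with 0 in Daxx-WT, 0 in DKO and 2 in Daxx-KO, on chromosome 12 (776 bp, fold enrichment 8.83) and chromosome 16 (1005 bp, 4.04). The LT-HSC, CMP and GMP lists were sequenced on another instrument than the other lists, so levels are set against each other only within a pair of genotypes. Lists differ in length within a pair too. Daxx-KO and Daxx-WT had 68917 and 64035 autosomal peaks in LT-HSC without a time label, 49619 and 64776 in CMP, and 48765 and 63960 in GMP. What list length contributes to these counts was not tested.

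Peaks with telomeric repeat anywhere outside the last 2 kb serve as the nearest comparison. In LT-HSC 3 d.p.i., 10 of 53 such Daxx-KO peaks with at least 5 TTAGGG (18.9%) lacked a Daxx-WT peak. The same held for 7 of 16 terminal ones and 24.1% of all Daxx-KO peaks. In LT-HSC without a time label these were 10 of 58 and 4 of 14, beside 13.8% of all Daxx-KO peaks. The counts are small and share sequence, and no test was made.

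Read counts at the terminal sequence could be compared by library in the 3 tables of sites. A site is a stretch that the authors' window scan had listed as different between genotypes, and its values are reads per library divided by a constant per library (scaled reads). Of all autosomal sites listed in LT-HSC 3 d.p.i., 28.7% were higher in Daxx-KO than in Daxx-WT and 71.3% lower. Among listed sites in peaks, 65.5% were higher in the rest of the chromosomes. On the telomere side, terminal sites included, 76.6% of those in peaks were (49 of 64). The terminal 2 kb held 10 sites, 9 of them in peaks, and 9 were higher. Of these higher ones 8 had an unadjusted p under 0.05 in limma, as had 2836 of the 3187 higher sites in the rest of the chromosomes (89.0%). None passed limma with Benjamini-Hochberg adjustment over all 413247 windows, nor did any other site of that table (0% of windows). Since a site was listed for a difference, groups fail to overlap at 99.5% of all sites, and non-overlap is no result about an end.

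The widest and largest of the terminal sites was on chromosome 18 (chr18:90599851-90602650, between genes), with 392, 251 and 325 scaled reads in Daxx-KO against 152 and 73.2. Every Daxx-KO library was above both controls, and the ratio of the means was 2.86, a limma log2 difference of 1.58 ± 0.35 (SE, n = 3 and 2; adjusted p = 0.301). At the end of chromosome 14 (chr14:124800251-124801100) the values were 117, 79.2 and 100.3 against 54.1 and 37.5 (log2 1.10 ± 0.27, adjusted p = 0.317). Chromosome 6 (chr6:149585301-149586500), where the peak was far wider in Daxx-KO, held 255, 261 and 223 against 160 and 112 (log2 0.87).

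The terminal site with the most reads had the smallest difference of the 10 in LT-HSC. Chromosome 10 (chr10:130593901-130594850) held 342, 418 and 325 scaled reads where Daxx-WT held 243 and 266 (log2 0.50 ± 0.23). Chromosome 1 (chr1:195370951-195371800) had 86.3, 105 and 89.7 against 49.6 and 43.1, and chromosome 13 (chr13:120320001-120321450) 179, 144 and 206 against 99.2 and 82.5, both without overlap. Chromosomes 7, 8 and 11 gave log2 differences of 0.83, 0.86 and 0.75. The exception was chromosome 17 (chr17:94885301-94886250), with 21.1, 7.64 and 22.2 scaled reads in Daxx-KO against 45.1 and 47.8 (log2 -1.53 ± 0.42). That site overlapped no peak and lay on the inner side of the terminal peak of that chromosome.

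KLS cells, from other animals and another Cre, gave 4 terminal sites, all higher in Daxx-KO, in a table where 19% of autosomal sites were higher, 81% were lower and groups failed to overlap at 99.6%. The last kb of chromosome 14 (chr14:124800851-124801900) held 56.8, 44.6 and 56.4 scaled reads in Daxx-KO against 10.03 and 21.8 in Daxx-WT, 3.31 times as many (log2 1.75 ± 0.37, adjusted p = 0.284). Chromosome 12 (chr12:120027801-120029000) held 66.8, 108 and 107 against 32.8 and 41.3 (log2 1.30 ± 0.33, adjusted p = 0.284). Chromosome 7 (chr7:145340301-145341250) held 85.7, 36.7 and 70.6 against 31.0 and 22.9 (log2 1.16, adjusted p = 0.525), and Daxx-KO replicate 2 was closest to the controls. As in LT-HSC, limma called 0 of the table's 407030 windows (0%). The sites of chromosomes 7 and 14 lay on the same sequence in both tables, which share no library.

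In DKO KLS cells 10 of 10 terminal sites were higher than in Daxx-WT, where 72.5% of all autosomal sites were. None of the 10 lay in a peak. Outside peaks, 88.4% of sites were higher in the rest of the chromosomes and 93.1% on the telomere side, close to this. limma called 6 of the 10, beside 67.5% of the listed sites called higher in the rest of the chromosomes, so the calls were no excess. Over all windows tested, most of them unlisted, 7.67% were called higher and 1.7% lower. The largest was the 24 bp repeat of chromosome 4 (chr4:156356851-156357450), which rose from 4.44 and 24.1 scaled reads to 41.4 and 47.8 (log2 1.96 ± 0.36, adjusted p = 6.66e-06). Next came the exon of the ferritin light chain pseudogene Ftl1-ps2 beside the chromosome 10 end (chr10:130592701-130593300), with 7.99 and 12.1 in Daxx-WT and 23.3 and 38.4 in DKO (log2 1.51, adjusted p = 0.000681). The end of chromosome 16 rose from 28.4 and 41.7 to 72.1 and 70.3 (log2 1.03, adjusted p = 0.0457).

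The telomeric repeat itself was thus only part of what differed in DKO. Of the 10 terminal sites 3 held at least 5 TTAGGG, against 6 of 10 in LT-HSC and 3 of 4 in Daxx-KO KLS. The chromosome 10 array (chr10:130594051) had 65.8 and 95.6 against 44.4 and 37.3 and was not called (log2 0.95, adjusted p = 0.0849). All DKO calls depend on both DKO libraries and on the scaling. Without either DKO library limma called 0 windows of the ends. The DKO libraries held 10.6 and 14.95 scaled reads per window against 7.39 and 8.19 in Daxx-WT, a mean log2 difference of 0.72, and dividing by each library's own mean turned 2036 higher and 344 lower calls at the ends into 188 and 657.

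Sites with at least 5 TTAGGG elsewhere on the chromosomes were mostly lower in the Daxx-KO tables, as were most listed sites of those tables. In LT-HSC the 6 terminal ones were higher, while of 7 in the rest 1 was higher and 6 lower. Of all sites in the rest 28.6% were higher. In Daxx-KO KLS the 3 terminal ones were higher and the 2 in the rest lower, where 19.1% of all sites in the rest were higher. In DKO, 3 of 3 terminal ones and 17 of 18 others were higher, as were 72.3% of all sites in the rest. These are counts of sites that share sequence and were listed for a difference, and no test was made.

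**Figure D2:**
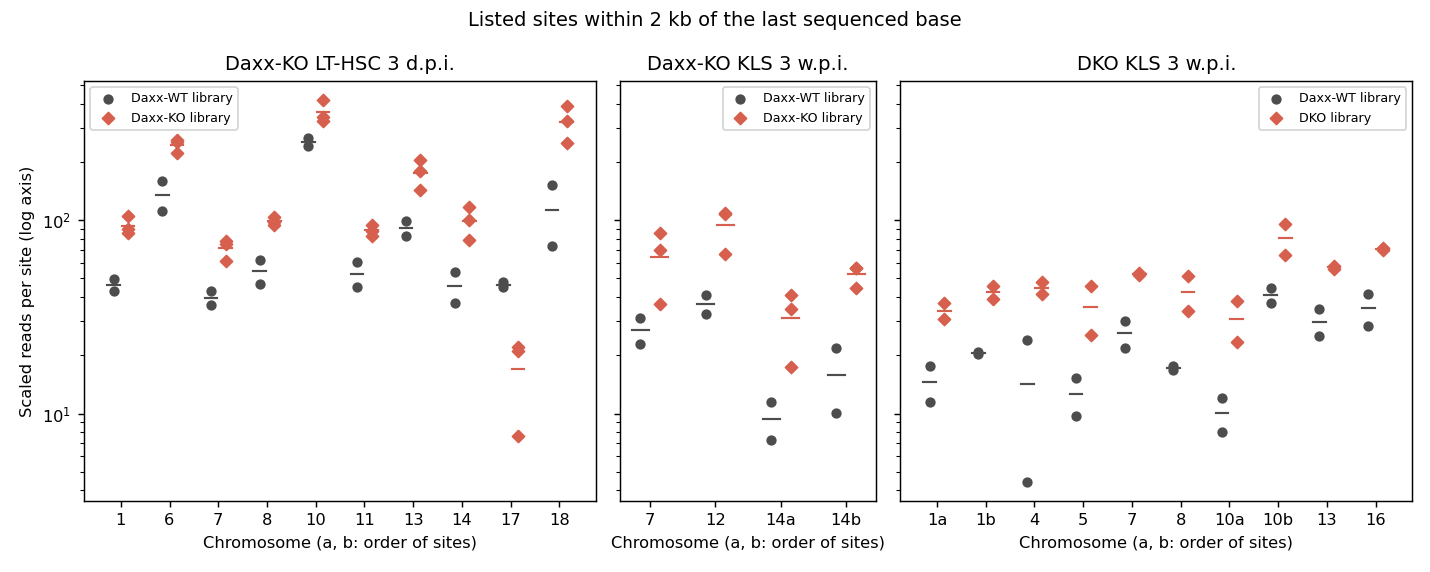
Scaled reads (log axis) at each listed site within 2 kb of the last sequenced base, by chromosome, in LT-HSC 3 d.p.i., Daxx-KO KLS and DKO KLS, with 1 point per library and bars at the group means. The mean of the knockout lies above that of Daxx-WT at 9 of 10, 4 of 4 and 10 of 10 sites.

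Beyond the last 2 kb the telomere side was closer to the rest of the chromosomes. Between 2 and 10 kb of the end each table had 1 site, lower in LT-HSC and in Daxx-KO KLS and higher in DKO. Between 10 and 100 kb, 2 of 5 sites were higher in LT-HSC (40%), 2 of 12 in Daxx-KO KLS (16.7%) and 37 of 46 in DKO (80.4%). The telomere side as a whole gave 30.7% (74 of 241), 16.8% (52 of 310) and 81.7% (1006 of 1231), against 28.6, 19.1 and 72.3% in the rest. The DKO value was the farthest of these from the rest, and the other 2 were close to it.

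**Figure D3:**
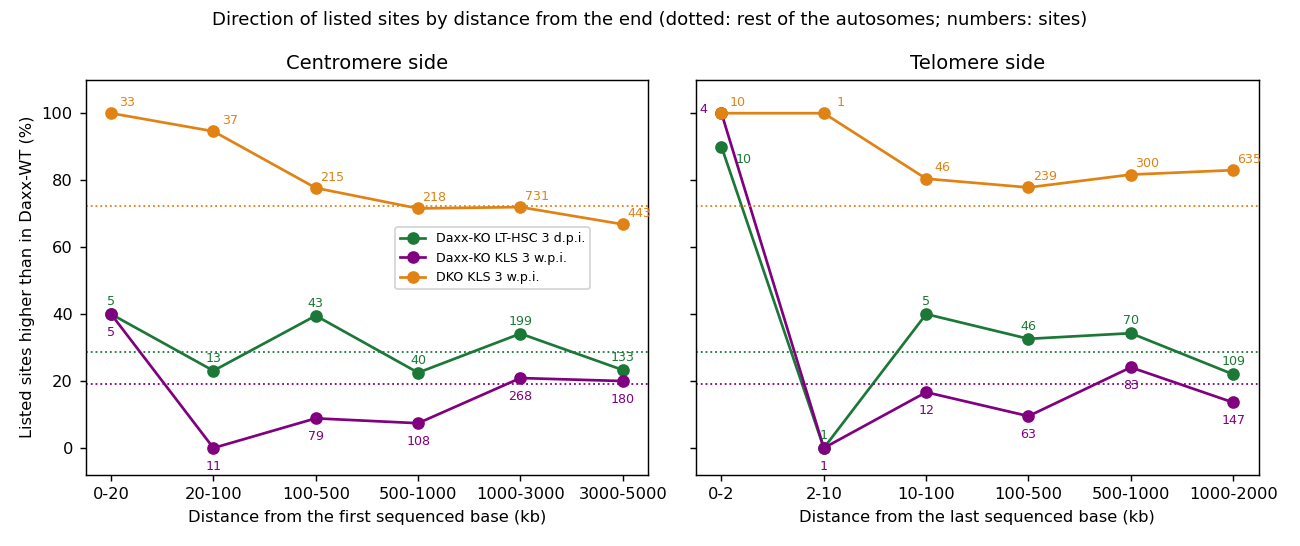
Share of listed sites higher in the knockout (percent) by distance in kb from the last sequenced base (telomere side) and from the first (centromere side), with the number of sites at each point and the rest of the chromosomes as dotted lines. In LT-HSC 3 d.p.i. the share is 9 of 10 sites in the last 2 kb, 0 of 1 between 2 and 10 kb, and 40% or less farther from the telomere.

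On the centromere side the shares were 30.0% (130 of 433), 16.7% (109 of 651) and 72.3% (1213 of 1677), beside 28.6, 19.1 and 72.3% in the rest. In DKO the share was highest at the first bases, with 33 of 33 sites in the first 20 kb and 35 of 37 between 20 and 100 kb, with 66.8% between 3000 and 5000 kb. Dividing by each library's mean left 25 of 33 and 21 of 37. limma called 13 and 12 of these sites higher, smaller shares than the 67.5% of listed sites in the rest. Among them, chr12:3016501 rose from 8.87 and 3.29 scaled reads in Daxx-WT to 26.5 and 40.3 in DKO (log2 2.37, adjusted p = 2.60e-08).

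The major satellite at the start of chromosome 9 carried a peak in every group. A peak from position 3001953, give or take 7 bp, was present in all 11 lists, with fold enrichments from 4.96 to 6.89 in the 5 lists that give one, near the list medians. The longest DKO site there (chr9:2999501-3003600) held 7260 and 6863 scaled reads in DKO and 4564 and 5426 in Daxx-WT (log2 0.50, adjusted p = 1), and the sign turned to -0.19 with each library divided by its mean. No satellite site at this start was listed in the Daxx-KO tables. This value therefore gave no difference at the satellite that held across scalings.

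In the first 20 kb of assembled sequence of other chromosomes, values were higher or lower by site. At chr4:3054101, Daxx-KO LT-HSC had 43.1, 33.4 and 47.5 scaled reads against 78.9 and 70.3 in Daxx-WT, and at chr4:3063051 Daxx-KO KLS had 39.0, 21.9 and 35.8 against 59.3 and 59.6. The same stretch was higher in DKO at 6 sites that limma did not call, such as chr4:3066001-3068600 with 375 and 469 against 219 and 256. By contrast, an exon of the predicted gene Gm3318 (chr10:3117251) was higher in both Daxx-KO tables, with 131, 98.3 and 85.5 against 44.0 and 50.6 in LT-HSC and 83.5, 130 and 162 against 49.3 and 65.3 in KLS.

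Across the whole windows, peaks found in 1 genotype only were about as frequent at the ends as elsewhere. A peak counted as found in 1 genotype when no peak of the other overlapped it by 1 bp. In LT-HSC 3 d.p.i., 24.1% of all Daxx-KO peaks lacked a Daxx-WT peak, and the share was 22.4% on the centromere side (353 of 1574), 23.7% on the telomere side (193 of 815) and 24.1% in the rest. In KLS the Daxx-KO share was 27.7% (426 of 1540) and 29.0% (228 of 785) against 32.0% in the rest and 31.8% of all peaks. For DKO the shares were 18.2 and 19.7% against 21.8% (21.6% of all).

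Peaks of Daxx-WT without a counterpart behaved alike. They made up 7.94, 7.82 and 8.76% of the centromere side, the telomere side and the rest in LT-HSC 3 d.p.i. (8.71% of all), 8.31, 5.85 and 8.10% in KLS (8.07% of all) and 45.1, 43.7 and 48.7% against DKO (48.5% of all). In LT-HSC without a time label Daxx-KO peaks were unmatched in 13.5, 13.7 and 13.9% (13.8% of all) and Daxx-WT peaks in 7.27, 5.35 and 6.71% (6.7% of all). In the myeloid progenitors most unmatched peaks belonged to Daxx-WT, whose lists were longer. The shares were 28.8, 25.8 and 28.5% in CMP (28.4% of all) and 26.1, 23.3 and 27.5% in GMP (27.4% of all), where those of Daxx-KO were 6.29, 5.68 and 6.22% (6.21% of all) and 3.48, 5.03 and 4.58% (4.55% of all).

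**Figure D4:**
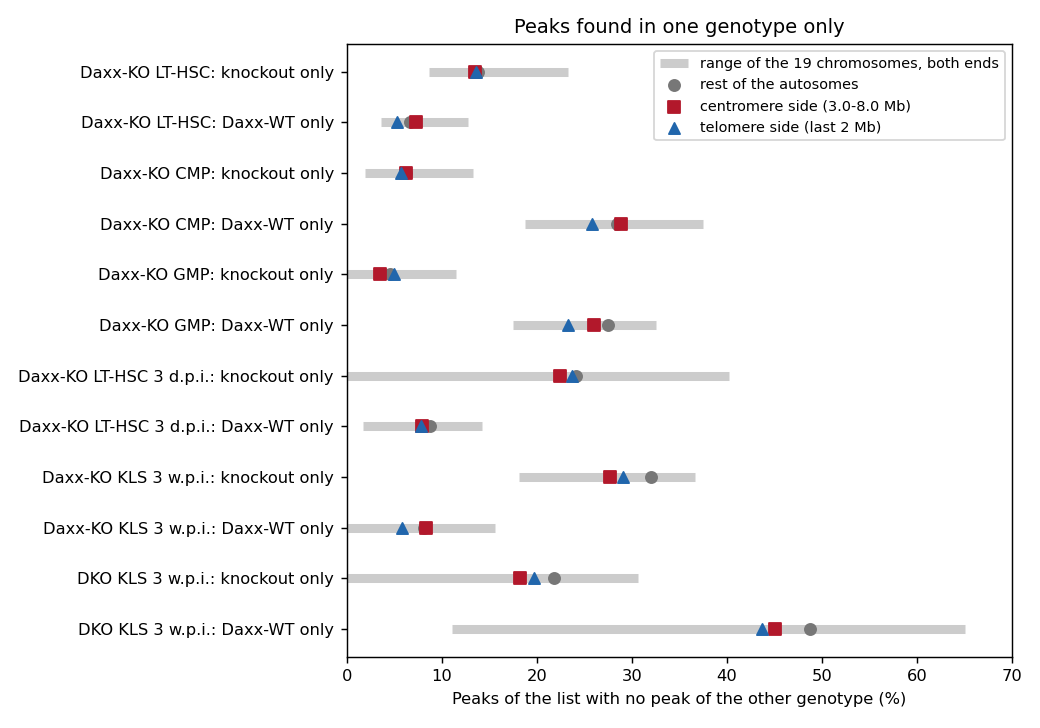
Share of peaks (percent) with no overlapping peak of the other genotype, on the centromere side, on the telomere side and in the rest of the chromosomes, for both directions of the 6 comparisons, with grey bars for the range of both ends over 19 chromosomes. The 3 points of a line lie close to each other, such as 22.4, 23.7 and 24.1% for Daxx-KO LT-HSC 3 d.p.i., while its bar runs from 0 to 40.2%.

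Part of the small shortfall at the ends went with promoters in some comparisons. Promoter peaks, within 1000 bp of a transcription start, made up 52.0% of end peaks and 44.1% of the rest in Daxx-WT LT-HSC 3 d.p.i., 38.2 and 31.4% in Daxx-WT LT-HSC, and 63.0 and 54.6% in DKO. For LT-HSC 3 d.p.i. 10.9% of promoter peaks and 32.9% of distal peaks of Daxx-KO in the rest lacked a Daxx-WT peak. Among distal peaks the difference between ends and rest was 0.60 percentage points for Daxx-KO LT-HSC 3 d.p.i., where it was -1.27 over all peaks, and -0.18 for DKO, where it was -3.07. For Daxx-KO KLS, with -3.87 over all peaks, distal peaks still differed, at 39.6% against 42.3%.

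Single chromosomes scattered widely in both directions. The ends were above the rest of their own chromosome on 8 to 10 of 19 chromosomes in 11 of the 12 comparisons, and on 5 of 19 for peaks of DKO only. The share of Daxx-KO LT-HSC 3 d.p.i. peaks without a Daxx-WT peak ran from 0% on chromosome 3 to 40.2% on chromosome 18, while the rest of the chromosomes ran from 21.6 to 27.6%. The strongest of these was an intronic peak of Crem (chr18:3270247-3271203, fold enrichment 10.9), which encodes a cyclic AMP responsive transcription factor. The other 4 Daxx-WT lists held a peak there.

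Peaks that both genotypes shared differed in strength by the same amount at the ends and elsewhere. The median log2 ratio of fold enrichment, Daxx-KO over Daxx-WT, was 0.11 on the centromere side (1221 peaks), 0.12 on the telomere side (622) and 0.12 in the rest (31166) in LT-HSC 3 d.p.i., and 0.23, 0.27 and 0.25 in KLS. For DKO it was -0.25, -0.28 and -0.28. The values at the ends were thus those of the whole lists.

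Within a list, end peaks were slightly stronger than the rest, by less among distal peaks, and in DKO distal end peaks were weaker. Median fold enrichment was 6.39 at the ends and 6.19 in the rest for Daxx-WT LT-HSC 3 d.p.i., 6.55 and 6.33 for Daxx-KO, 5.84 and 5.66 for Daxx-WT KLS and 6.50 and 6.26 for Daxx-KO KLS. Over distal peaks of Daxx-WT LT-HSC 3 d.p.i. the medians were 5.50 and 5.48. In DKO they were 5.05 and 4.91 over all peaks and 4.05 and 4.21 over distal peaks. Peaks made mostly of repeats were more frequent at the ends, at 3.30% against 1.63% in Daxx-WT LT-HSC 3 d.p.i.

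The direction of listed sites differed far more between sites in and outside peaks than between ends and rest. This contrast is partly built in, since a site counted as in a peak when it overlapped a peak of either genotype. Those peaks come from the same libraries as the direction. The longer list of each pair was Daxx-KO in LT-HSC 3 d.p.i. (43466 against 36287 autosomal peaks) and in KLS (43872 against 32714), and Daxx-WT against DKO (32714 against 21788). In LT-HSC 3 d.p.i., 73.5% of end sites in peaks (139 of 189) were higher in Daxx-KO and 13.4% of those outside peaks, against 65.5 and 13.8% in the rest. In Daxx-KO KLS the values were 51.1% (97 of 190) and 8.30%, against 61.5 and 8.53%. DKO was the reverse, with 32.0% of end sites in peaks (230 of 719) and 90.9% of those outside, against 30.4 and 88.4% in the rest. On the telomere side of DKO 93.1% of sites outside peaks were higher, and 19.01% of sites lay in peaks against 27.8% in the rest.

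By limma, 2036 of 2908 end sites rose in DKO (70.01%) and 344 fell (11.8%), against 67.5 and 14.8% of sites in the rest. The telomere side had 948 that rose (77.0%) and 105 that fell, the centromere side 1088 (64.9%) and 239. In the Daxx-KO tables limma called 0 sites. At an unadjusted p under 0.05, 170 end sites were higher and 461 lower of 674 in LT-HSC, and 134 and 782 of 961 in KLS. Such sites made up 93.6% at the ends and 96.2% in the rest in LT-HSC, and 95.3 and 96.8% in KLS.

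**Figure D5:**
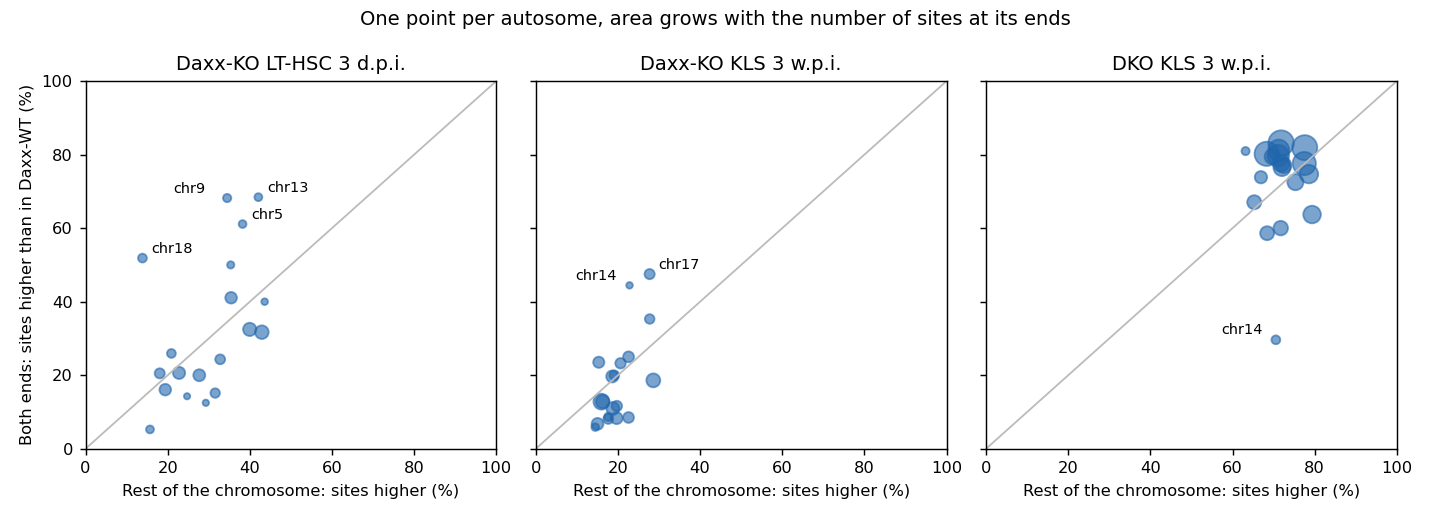
Share of listed sites higher in the knockout (percent) at the ends of each autosome against the rest of the same autosome, in the 3 tables, with 1 point per autosome whose area grows with its number of end sites. Points fall on both sides of the diagonal, with the ends above the rest on 8, 8 and 13 of 19 autosomes.

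A few chromosomes carried most of the spread. The ends of chromosomes 13, 9 and 18 had 68.4, 68.2 and 51.9% of their sites higher in LT-HSC 3 d.p.i., and those of chromosome 14 had 5.26%. In Daxx-KO KLS chromosome 17 was the highest with 19 of 40 sites (47.5%) and chromosome 3 the lowest at 5.88%. In DKO chromosome 14 stood apart, with 8 of 27 end sites higher (29.6%) against 70.5% in the rest of that chromosome. On chromosome 14 the terminal site was the 1 of 19 end sites that was higher in LT-HSC.

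Regions that recurred across lists of 1 genotype were few. The 11 lists merged into 5112 end regions, of which 888 (17.4%) were present in all 11 lists and 880 in 1 list only. One region, chr11:3601921-3603219, had a peak in all 5 Daxx-KO lists and in neither the 5 Daxx-WT lists nor DKO. It lies between genes, 22629 bp from the start of the predicted gene Gm11949, and its central 300 bases, shown above, hold 18 copies of TGCTGC, as many as in only 2 of 43466 Daxx-KO LT-HSC 3 d.p.i. peaks (0.0046%). The hexamer was not chosen independently of this region, and that list includes the region's own peak, so this share is descriptive only. No region was present in all 5 Daxx-WT lists and absent from Daxx-KO. With the bar lowered to 3 lists, 6 regions had peaks in Daxx-KO and not in Daxx-WT lists (0.117%) and 12 in Daxx-WT and not in Daxx-KO lists (0.235%), 1 of which DKO also held. Of 93103 regions in the rest of the chromosomes, 14.9% were present in all lists, 2 in all Daxx-KO and no Daxx-WT list and 0 the other way, and at the bar of 3 lists 126 (0.135%) and 120 (0.129%).

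The runner-up was chr17:7721526-7723081, between genes, with peaks in 4 of 5 Daxx-KO lists and no Daxx-WT list. The site there held 197, 130 and 137 scaled reads in Daxx-KO LT-HSC 3 d.p.i. against 53.0 and 41.3 in Daxx-WT (log2 1.68 ± 0.27), and 111, 129 and 197 against 36.5 and 40.1 in KLS (log2 1.86 ± 0.33). The groups did not overlap in either table, 1 with tamoxifen and 1 with pI:pC (limma adjusted p = 0.301 and 0.284). Non-overlap is no result here, since it held at 99.5 and 99.6% of all listed sites. The place was also picked for its peaks in Daxx-KO. A peak near Csf2ra (chr19:61207461-61208102), which encodes a receptor chain for GM-CSF, was present in the Daxx-KO lists of LT-HSC, CMP and LT-HSC 3 d.p.i. and in no Daxx-WT list. Its site held 127, 135 and 87.6 scaled reads in Daxx-KO LT-HSC 3 d.p.i. against 28.2 and 33.8 (log2 1.86 ± 0.27, adjusted p = 0.301).

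The LT-HSC 3 d.p.i. and Daxx-KO KLS tables share no library, so sites listed in both can be set side by side. At the ends 44 sites overlapped, 6.53% of the LT-HSC and 4.58% of the KLS sites. Of these 19 were higher in both, 20 lower in both and 5 opposite, so 88.6% had the same direction, against 77.3% of 648 in the rest.

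Of the sites higher in both tables, several lay in or beside named genes. Over the repeat-rich predicted gene Gm18190 (chr7:7275951-7278750) Daxx-KO LT-HSC had 1166, 1196 and 997 scaled reads against 421 and 323 (log2 1.60), and KLS 365, 604 and 473 against 177 and 204 (log2 1.30). An intronic site of Slc25a13, a mitochondrial aspartate-glutamate carrier, had log2 differences of 1.21 in LT-HSC and 1.12 in KLS, and a site in the amino acid transporter gene Slc6a20b 1.19 and 1.31. A site beside Malat1, an abundant nuclear non-coding RNA, had 0.60 and 0.90, and an intron of the endocytic adaptor gene Snx9 0.60 and 1.02. None of these was called by limma.

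By the ratio of the group means, the highest sites of LT-HSC 3 d.p.i. included the chromosome 17 and Csf2ra sites given above. An exonic site of Pfn4, a profilin, held 109, 116 and 103 scaled reads in Daxx-KO against 28.2 and 35.6 in Daxx-WT (chr12:4774801-4776300; log2 1.76 ± 0.23, adjusted p = 0.301). A site 19750 bp from Ccr2, the receptor for monocyte chemoattractants, held 63.3, 64.9 and 72.8 against 20.3 and 15 (chr9:124080951-124082200; log2 1.88). The lowest were between genes, at chr3:5128051 with 4.59, 7.64 and 7.39 against 34.9 and 30.0 and at chr6:147915451 with 15.6, 0 and 2.11 against 27.0 and 31.9. The start of Gmeb2, a glucocorticoid modulatory factor, held 5.51, 4.77 and 15.8 against 33.8 and 30.0 (log2 -1.94). The groups did not overlap at any of these sites, as at 99.5% of all sites of the table.

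In Daxx-KO KLS the highest sites were an intron of Mpp7, a cell junction scaffold (chr18:7523801; 64.6, 65.6 and 47.04 against 19.2 and 10.3, log2 1.98), 2 sites between genes (chr17:4500651, log2 1.89; chr16:97279101, log2 1.70) and the end of chromosome 14. The lowest were chr3:6728751 between genes (log2 -3.14), chr10:129908401 beside the olfactory receptor gene Olfr815 (log2 -2.95), an intron of the kinase gene Grk5 (chr19:61008651, log2 -2.34) and an intron of Ap1b1, a subunit of a clathrin adaptor. The Ap1b1 site held 4.45, 4.37 and 4.70 scaled reads in Daxx-KO against 23.7 and 28.7 (log2 -2.30, adjusted p = 0.284).

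In DKO the largest site that rose was chr17:6496301-6496950, between genes near the pseudogene Tmem181b-ps, where DKO held 27.6 and 34.7 scaled reads and Daxx-WT 0 and 1.10. That is 63 reads against 1, a ratio of 63.9 with a 95% counting interval of 11.1 to 2565, which covers counting error only. Introns of Ccdc7a (chr8:128875701; 42.4 and 53.4 against 7.10 and 4.39, log2 2.88) and of the synaptic scaffold gene Shank2 (chr7:144098951, log2 2.72) rose as well, as did chr15:5737451 between genes (log2 2.85). Sites that fell were an intron of Gm10339 (chr14:7407051, log2 -2.61), chr13:119961301 between genes (log2 -2.48), chr18:4803651 between genes, the only one of these in a peak (log2 -2.44), and an exon of Ccr9, a chemokine receptor of lymphoid progenitors, with 7.42 and 2.81 against 21.3 and 19.7 (log2 -1.92, adjusted p = 1.00e-05).

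The strongest end peaks that Daxx-WT KLS had and DKO lacked were in an intron of Esr1, the oestrogen receptor (chr10:4786667-4787688, fold enrichment 12.5), and at the promoter of Cr2, the complement receptor of B cells (chr1:195176342-195177127, 11.3). All 5 Daxx-WT and all 5 Daxx-KO lists held both. The PU.1 core GAGGAA was searched on both strands in the central 300 bases. It was present in 40.05% of the 809 end peaks of Daxx-WT without a DKO peak and in 29.5% of the 1005 with one, against 42.6 and 29.5% in the rest of the chromosomes. Among distal end peaks the shares were 42.8 and 36.9%, against 44.1 and 37.3%. The ends did not stand apart from the rest in this.

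Known genes with starts in the windows were mostly open at their promoters in every list. Of 12 stem and progenitor cell regulators, 11 had a promoter peak in all 11 lists, among them Dnmt3a, the de novo DNA methyltransferase, and Rtel1, the helicase that unwinds telomeric DNA. All 8 chromatin genes did, including Cbx5, which encodes the heterochromatin protein HP1 alpha. Of 10 interferon and NF-kB genes 7 did, of 4 cell cycle genes 2, and of 15 genes for cytokines and chemokine or TNF receptors 5, while Ccr3, Cxcr6 and Tnfrsf4 had none in any list. None of the 8 fixed markers of B, T, erythroid and neutrophil cells starts in a window.

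The promoter peaks absent from DKO alone were those of Cd34, the stem cell sialomucin, Cr2, Mx2, an interferon-induced antiviral GTPase, and the cell cycle genes Ccnd1 (cyclin D1) and Cdk14. For Cr2 fold enrichment was 11.3 in Daxx-WT KLS and 13.0 in Daxx-KO KLS, and for Mx2 it was 5.71 and 6.47. Samd9l, an interferon-induced growth suppressor, lacked a peak in Daxx-WT LT-HSC 3 d.p.i. only. The Ccr2 promoter, of the 5 lists with values, had a peak in Daxx-KO KLS only (5.31). The DKO list is the shortest of the 11, with 21788 autosomal peaks, so a peak lost there and one that missed the threshold cannot be told apart.

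Sites nearest to these genes followed the direction of their tables, with 1 departure. Of the 26 listed for stem and progenitor regulators in LT-HSC 3 d.p.i. 8 were higher and 18 lower, of 28 in Daxx-KO KLS 3 and 25, and of 58 in DKO 42 and 16, 46 of them called by limma, where 82.3% of all listed DKO sites in the rest were called. Dnmt3a had 12 sites in Daxx-KO KLS, all lower (log2 ratios from -1.45 to -0.84), and 15 in DKO, 10 higher and 5 lower, of which 13 were called. Cdk6, the cyclin D kinase that sets the exit of stem cells from quiescence, departed from its table in LT-HSC with 4 of 4 sites higher (0.80 to 1.66). An intronic one (chr5:3370951-3372000) held 92.7, 35.3 and 47.5 scaled reads in Daxx-KO against 22.5 and 13.1. In KLS its 2 sites were lower.

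The other lists had fewer sites and share some with the first, since Dnmt3a and Crebbp also stand in the chromatin list and Cdk6 in the cell cycle list. In Daxx-KO KLS 12 of the 17 chromatin sites and 2 of the 11 cell cycle sites were counted before, and in DKO 16 of 27 and 7 of 26. Cytokine and receptor genes had 4 higher and 2 lower in LT-HSC, 0 and 3 in Daxx-KO KLS and 17 and 9 in DKO, of which 20 were called. Interferon and NF-kB genes had 0 and 4, 0 and 2, and 15 and 7 (18 called), cell cycle genes 4 and 3, 1 and 10, and 11 and 15 (20 called), and chromatin genes 3 and 6, 0 and 17, and 20 and 7 (22 called). In DKO a site in Ccr1, an inflammatory chemokine receptor, rose from 12.4 and 44.97 to 95.4 and 97.4 scaled reads (chr9:123964351-123965600; log2 1.97, adjusted p = 5.72e-06). An intron of Rtel1 rose from 7.99 and 17.6 to 44.5 and 47.8 (chr2:181326401-181327300; log2 1.87), and the start of Cdk14, a cyclin-dependent kinase gene, fell from 210 and 183 to 57.3 and 61.8 (chr5:5419401-5420900; log2 -1.71).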

How the data were processed

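ATAC-seq libraries of sorted mouse bone marrow cells were prepared, sequenced and processed by the authors, whose notes name CASAVA 1.8.4, cutadapt 1.13, STAR 2.5.3, bedtools and the build mm10 without roles. The peak caller and the handling of multi-mapping reads are not given in the sources used here. The 11 deposited peak lists hold 1 list per group. Of these, 6 give positions only, and 5 also give a fold enrichment, a ratio over local background, and a score that scales with reproducibility between replicates, both as the authors made them. The 3 deposited tables of sites come from diffReps 1.55.6, which per the file headers scanned the genome with windows of 600 bp at steps of 50 bp (fragment length 100 bp), tested their reads with a negative binomial model and merged windows with p under 0.0001 into sites. Their signal columns are means per group of reads divided by a constant per library, per the file headers, and the values of the libraries stand beside them in 1 deposited cell. The tables also hold the authors' log2 fold changes, p-values, adjusted p-values and up or down calls, which were not used. Mean reads per window ran from 4.21 to 16 per library, and total reads are not given in the sources used here.

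A peak or site was placed by its midpoint. Peaks were matched by an overlap of at least 1 bp. Promoters lay within 1000 bp of a GENCODE M 21 transcription start. Direction was that of the group means, on log2(value + 1) where a ratio is given. Sites were tested on log2(value + 1) with limma 3.58.1 in R 4.3.3, without a replicate block, with Benjamini-Hochberg adjustment over all windows the authors tested (threshold 0.05), unlisted windows counting as larger p. Since the fit holds only sites the authors had listed for a small p, its spread is that of chosen sites, and its p-values are too small. A difference on this scale understates that of low sites. The script was tested on simulated data. Tables were read with Python 3.11.15, pandas 2.3.3, numpy 2.4.6 and pysam 0.24.0 and drawn with matplotlib 3.10.9. Terminal means within 2 kb of the last sequenced base. Named were, per table, direction and end, the 2 sites with the largest ratio of means among those with at least 10 scaled reads on average, per comparison, genotype and end the unmatched peak with the highest fold enrichment, regions with a peak in every list of 1 genotype and none of the other, and gene lists by function. Terminal and first-sequence sites, sites shared by tables and regions in 3 or 4 lists were added after their values were seen. The windows and lists were chosen with earlier results of these data known. Alternatives covered overlap, list length, peak threshold, window size, promoters, scaling, pseudocount, filters, the replicate block and each library in turn.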

Additional observations from a re-analysis of the deposited data

Results flagged for a closer look

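At 5 places near chromosome ends, LT-HSC 3 d.p.i. and KLS cells had listed sites in which all Daxx-KO libraries lay above all Daxx-WT libraries in 1 table and below them in the other. The limma log2 difference of a site in an intron of the predicted gene Gm9077 (chromosome 12) was 1.37 in LT-HSC, with 94.5, 91.6 and 88.7 scaled reads in Daxx-KO against 36.1 and 33.8, and -1.51 in KLS, with 12.3, 7 and 7.53 against 24.6 and 28.7. At the start of Fam3b (chromosome 16), which encodes a secreted cytokine-like protein, it was 0.96 and -1.38, with 58.7, 64.0 and 53.8 against 29.3 and 30.0 in LT-HSC and 30.1, 33.2 and 32.9 against 76.6 and 94.0 in KLS. Sites at the start of Gid8 (chromosome 2), a ubiquitin ligase subunit, gave 0.91 and -1.48, those in an intron of Nsmaf (chromosome 4), an adaptor of TNF receptor signalling, -0.77 and 0.71, and those in an intron of Cdk6 (chromosome 5) 1.19 and -1.32. The difference between the 2 tables was not tested. Cell population, Cre line, inducing agent and time after it all differ between the tables and cannot be told apart.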

How the results depend on the processing

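Of the difference in unmatched peaks between ends and rest, 81 values under alternatives stayed within counting error and 9 did not. Among distal peaks it was 1.18 percentage points for Daxx-KO LT-HSC (-0.30 over all peaks), 1.75 for Daxx-WT CMP (-0.66), 0.60 for Daxx-KO LT-HSC 3 d.p.i. (-1.27), -0.18 for DKO (-3.07) and 0.32 for Daxx-WT against DKO (-4.13). Among promoter peaks it was -0.37 for Daxx-WT GMP (-2.37), -0.52 for Daxx-KO KLS (-3.87), 1.16 for Daxx-WT KLS (-0.60) and -0.33 for DKO. End peaks above the median strength of the rest, 52.1 to 53.5% by list, were 50.1, 50.5, 51.0 and 45.2% of distal peaks in Daxx-WT LT-HSC 3 d.p.i., Daxx-WT KLS, Daxx-KO KLS and DKO, and 54.1% in narrower windows in Daxx-KO LT-HSC 3 d.p.i. The share of sites higher, ends minus rest, was 1.66, -2.36 and 4.04 points in LT-HSC, Daxx-KO KLS and DKO. It was 8.07, -10.4 and 1.63 for sites in peaks, 6.47 in narrower windows in LT-HSC and 1.12 at promoters in Daxx-KO KLS. Leaving out the outermost sequence, an alternative chosen after seeing the data, kept the unmatched peaks and the site directions within counting error. It could hardly have moved them, since few members lie there. In LT-HSC the last 2 kb held 10 and the first 20 kb 5 of the 674 end sites. Counting error here treats peaks or sites as independent.

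For limma calls at the ends, adjustment over the listed sites alone gave 168 higher and 460 lower in LT-HSC, 133 and 781 in Daxx-KO KLS and 636 lower in DKO. Division by each library's mean gave 2 lower in LT-HSC and 188 higher and 657 lower in DKO, and a pseudocount of 5 gave 23 and 204 in Daxx-KO KLS. With the replicate number as a block Daxx-KO KLS had 4 higher and 95 lower calls, and DKO 2050 and 362. The numbers do not pair the samples: deviations of same-numbered libraries correlated at 0.0083 and 0.0517 in Daxx-KO KLS and -0.0040 in DKO. Leaving out 1 library gave 0 to 1785 higher and 0 to 260 lower calls in DKO (0 and 0 without either DKO library, 1333 and 166 without Daxx-WT replicate 1) and 0 in both Daxx-KO tables, where a lone library left in a group was assumed to vary like the others. A count model on whole reads was not run. The site chr13:119599851 in Daxx-KO KLS had log2 differences of -0.048 to 0.54 without 1 library (-0.048 without Daxx-KO replicate 1), and chr18:3005351 in DKO -0.11 to 0.65. Division by the mean turned chr18:3005351 to -0.43, chr11:3099901 to -0.0041 and the chromosome 9 satellite sites to -0.19, -0.22, -0.20, -0.19, -0.13, -0.15 and -0.19 in DKO. Of the other values of named sites 2854 kept direction and side of the threshold, 434 lost the threshold and 283 gained it. The cause of these changes was not tested. The smallest difference that single ends could show at this depth was not computed.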
